A study of Mus musculus with 75 samples.

Results

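The 10 genes described here are the 4 members of the Id family (Id1, Id2, Id3 and Id4) and 6 genes of the bone morphogenetic protein (BMP) pathway: the ligands Bmp2, Bmp4 and Bmp7, the type I receptor Bmpr1a and the inhibitory Smads Smad6 and Smad7. They were taken by name, as 10 of the 55291 genes in the table of raw read counts, and followed across 5 groups of single cells from the adult mouse cochlea, 75 cells in all. BMP ligands bind pairs of serine/threonine kinase receptors, which phosphorylate the receptor Smads (Smad1, Smad5 and Smad9); these join Smad4 and switch on target genes, among them Id1, Id2, Id3 and the feedback inhibitors Smad6 and Smad7. Id proteins have a helix-loop-helix but no DNA-binding region. They pair with E proteins and so keep these from partners such as Atoh1, the factor that starts hair cell (HC) differentiation. In the cochlea, Id genes are known from the prosensory cells of the embryo and from supporting cells (SCs), and are lost as HCs form.

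All cells were Tdtomato+ and were picked by hand from mice labelled as C57BL/6. The 17 WT_P30 OHCs were wild-type outer hair cells (OHCs), marked by Ai9 through the OHC-specific Slc26a5 CreER allele after tamoxifen at P20 and P21, and taken at P30. The 16 WT_P60 SCs were marked by Ai9 through Fgfr3-iCreER, which at this age acts mainly in pillar and Deiters cells, after tamoxifen at P30 and P31, and taken at P60. The other 42 cells came at P60 from Fgfr3-Atoh1-Ikzf2-DTR mice. In these mice the same Fgfr3-iCreER and the same tamoxifen turned on 2 transgenes in SCs, Atoh1 and Ikzf2, and diphtheria toxin at P36 killed the OHCs through the DTR allele at Slc26a5. The authors sorted the 42 by their own Myo7a and Slc26a5 (Prestin) mRNA into 11 OHC-like cells (both present), 16 nascent HCs (Myo7a alone) and 15 SCs that failed to become HCs (neither), called failing SCs here and SCs failing to become HCs in the plots. The classes are used as labelled, and in the counts they were not strictly presence or absence: nascent HCs 1, 2 and 6 had Slc26a5 over 1 CPM, up to 14.7 CPM in cell 2, beside 15.9 CPM in the lowest OHC-like cell, and failing SCs 2 and 15 had 28.0 and 18.9 CPM of Myo7a, beside 50.0 CPM in the lowest OHC-like cell and 94.5 CPM in the lowest nascent HC. Reads of a transgene and of the endogenous gene are not separated in the table. No label names the animal of a cell, so each group counts as 1 sample: no test was run, no p-value is given, and values over cells are a description of these cells. Means carry the SD over cells, which is spread between cells and not between animals.

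Total counts per cell lay between 4264780 and 22934062, and the number of genes with at least 1 CPM (counts per 1000000 counted reads) had medians of 4777 in WT_P30 OHCs, 6872.5 in WT_P60 SCs, 8488 in OHC-like cells, 8066.5 in nascent HCs and 6977 in failing SCs. OHC-like cell 4 stood apart with 3348 genes, the fewest of the 75. Markers of the labelled cell types were summed in each cell. The lists include Slc26a5 and Fgfr3, whose Cre lines marked the cells, and Myo7a and Slc26a5, by which the 42 were sorted. The sums are thus no independent check of the labels. The 5 OHC markers (Ocm, Slc26a5, Myo7a, Tmc1 and Espn) summed to 11794 to 43785 CPM in WT_P30 OHCs and to at most 0.3 CPM in WT_P60 SCs, and the 8 SC markers summed to 2264 to 13902 CPM in WT_P60 SCs and to at most 496 CPM in WT_P30 OHCs. In OHC-like cells the sums were 1086 to 7735 CPM for OHC markers and 159 to 920 CPM for SC markers. They were 382 to 7848 CPM and 175 to 940 CPM in nascent HCs, and 39.7 to 1508 CPM and 273 to 22338 CPM in failing SCs. Atoh1 reached at most 20.9 CPM in any cell of the wild-type groups, while the lowest value among the 42 cells was 383 CPM. Every WT_P30 OHC was in 1 library run, every WT_P60 SC in another and the 42 cells in 5 more. A run is here a range of library numbers. The sample titles name no run, so what each range stands for is not given. Of the 5 ranges of the 42 cells, called A to E, A to D follow on in number with no gap. The labels thus do not set the borders between A, B, C and D, and these ranges may not be separate batches. Run, mouse line and, for OHCs, age thus cannot be told apart from cell type in any comparison with a wild-type group. Only the 42 cells had diphtheria toxin and OHC loss, which cannot be told apart from the transgenes in those comparisons.

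In GENCODE M21 (GRCm38) Id1 lies at chr2:152736251-152737410 (plus strand), Id2 at chr12:25093799-25097140 (minus), Id3 at chr4:136143497-136145755 (plus) and Id4 at chr13:48261228-48266026 (plus). Id4, Bmp4 and Bmpr1a overlap noncoding or predicted genes on the other strand, and whether the authors counted by strand is not given in the sources used here, so reads of those genes cannot be told apart from them. RefSeq promoter sequences (GRCm38.p6) could be matched for Id2, Id3, Id4, Bmp4, Smad6 and Bmpr1a. The sequences of Id2 and Smad6, which were higher in the 42 cells than in WT_P60 SCs, and of Id4, which was lower, are shown from 250 bases before to 10 bases after the RefSeq start. Capitals mark 2 short motifs bound by Smad proteins, GGCGCC (a GC-rich element) and GTCTAGAC (the palindromic Smad binding element), each searched on both strands over 250 bases before to 50 after the start. The windows are chr12:25096083-25096342, minus strand for Id2, chr13:48260866-48261125, plus strand for Id4 and chr9:64022050-64022309, minus strand for Smad6.
Id2: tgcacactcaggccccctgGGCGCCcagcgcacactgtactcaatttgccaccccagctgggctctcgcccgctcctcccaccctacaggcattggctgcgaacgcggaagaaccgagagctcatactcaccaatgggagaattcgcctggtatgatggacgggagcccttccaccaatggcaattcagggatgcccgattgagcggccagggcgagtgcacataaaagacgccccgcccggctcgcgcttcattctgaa
Id4: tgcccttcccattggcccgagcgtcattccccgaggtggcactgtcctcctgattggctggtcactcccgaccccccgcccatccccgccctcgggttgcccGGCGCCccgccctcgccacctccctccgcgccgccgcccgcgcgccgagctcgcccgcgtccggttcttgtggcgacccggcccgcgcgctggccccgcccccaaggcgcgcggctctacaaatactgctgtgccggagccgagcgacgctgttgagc
Smad6: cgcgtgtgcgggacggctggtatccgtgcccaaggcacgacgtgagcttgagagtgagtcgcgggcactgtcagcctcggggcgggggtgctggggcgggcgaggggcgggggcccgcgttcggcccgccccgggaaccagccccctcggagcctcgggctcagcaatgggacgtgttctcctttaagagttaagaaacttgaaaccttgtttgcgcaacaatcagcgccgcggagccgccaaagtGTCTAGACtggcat
GTCTAGAC was found at position -4 of Smad6, across its start site, and in 57 of 27025 mouse promoters of the same length (0.211%). GGCGCC was found at -231 of Id2, -148 of Id4 and -198 of Bmpr1a, and in 12.0% of the promoters. Neither motif was in the windows of Id3 or Bmp4. These matches describe the letters of the windows, and their part in the levels was not tested. GGCGCC holds only G and C. The searched windows of Id2, Id4 and Bmpr1a were 63.3, 73.3 and 79.3% GC, beside a median of 52.7% over the promoters.

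Id1 and Id3 were at or near 0 in most WT_P30 OHCs and Id2 was low there; all 3 were present in most WT_P60 SCs, and higher by mean and median in all 3 groups of Fgfr3-Atoh1-Ikzf2-DTR cells, including the OHC-like cells. Id4 differed the other way in the 42 cells: it was present in every wild-type OHC and SC and lower in each of the 3 groups. Levels are given as TMM-scaled CPM, in the order lowest, median and highest cell.

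Id1, a widely used readout of BMP signaling, was found in 1 of 17 WT_P30 OHCs (5.88%, exact Clopper-Pearson 95% interval 0.149 to 28.7%, counting error only) and in 12 of 16 WT_P60 SCs (75.0%, 47.6 to 92.7%). In WT_P30 OHCs its level was 0, 0 and 32.7 CPM, all from cell 8. That cell also had the highest Smad6 of its group, 22.8 CPM, and 85.9 CPM of the endothelial gene Pecam1. OHC cell 9 had more Pecam1, 158 CPM, with no read of Id1 or Smad6. Of 8 endothelial markers, Pecam1, Egfl7 and Flt1 were detected in WT_P30 OHCs, where the 8 summed to 0 to 181 CPM. Cldn5, Cdh5, Kdr, Tek and Emcn had no read there. Whether endothelial RNA had a part in the Id1 reads was not tested. In WT_P60 SCs Id1 was 0, 33.6 and 405 CPM and in OHC-like cells 0.223, 278 and 543 CPM. It was 0, 285 and 1540 CPM in nascent HCs and 0, 447 and 1834 CPM in failing SCs. The 3 groups of Atoh1 and Ikzf2 cells were thus above WT_P60 SCs by median, with overlapping ranges. Of these cells, 4 of 11, 4 of 16 and 9 of 15 exceeded the highest WT_P60 SC, and 10 of 11, 14 of 16 and 12 of 15 exceeded the single WT_P30 OHC with Id1 reads. Mean levels were 1.93 ± 7.94, 74.1 ± 108, 271 ± 181, 380 ± 396 and 622 ± 614 CPM (SD, n = 17, 16, 11, 16 and 15 cells, in the same order of groups).

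Id2, a further Smad target that many epithelia and SCs express, was present in every WT_P60 SC and every induced cell. Its level was 0, 50.3 and 655 CPM in WT_P30 OHCs, with 10 of 17 cells over the detection limit of 1 CPM. It was 323, 1180 and 3229 CPM in WT_P60 SCs, and 16 of the 17 OHCs lay under the lowest of these. In OHC-like cells it was 81.1, 3139 and 4345 CPM, in nascent HCs 218, 2695 and 8480 CPM, and in failing SCs 65.2, 2028 and 7119 CPM. The highest WT_P30 OHC was exceeded by 10 of 11 OHC-like cells. The exception was OHC-like cell 4, at 81.1 CPM. Means were 104 ± 166, 1397 ± 841, 3047 ± 1258, 3211 ± 2250 and 2361 ± 1851 CPM.

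Id3, which like Id1 is a direct target of the receptor Smads, was detected in 4 of 17 WT_P30 OHCs (23.5%, 6.81 to 49.9%) and in 14 of 16 WT_P60 SCs (87.5%, 61.7 to 98.4%). Its level was 0, 0 and 156 CPM in WT_P30 OHCs and 0, 126 and 770 CPM in WT_P60 SCs. In OHC-like cells it was 0, 467 and 916 CPM, in nascent HCs 16.7, 477 and 1396 CPM, and in failing SCs 0, 170 and 2731 CPM. In the last group 1 cell, cell 14, carried 44.7% of the summed level, and without it the log2 ratio of failing SCs to WT_P60 SCs was 0.27 in place of 1.02. As for Id1 and Id2, the ranges of the induced groups and of WT_P60 SCs overlapped.

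Id4 was detected in 17 of 17 WT_P30 OHCs (exact interval 80.5 to 100.0%) and 16 of 16 WT_P60 SCs. Id4 is known mainly from neural precursors and glia. Its level was 3.48, 128 and 611 CPM in WT_P30 OHCs and 149, 325 and 1114 CPM in WT_P60 SCs. In OHC-like cells it was 0, 38.2 and 603 CPM, in nascent HCs 0, 34.0 and 106 CPM, and in failing SCs 0, 70.4 and 310 CPM. Every nascent HC lay under the lowest WT_P60 SC, and so did 10 of 11 OHC-like cells and 11 of 15 failing SCs. Over the 11443 genes that passed the filter on low counts, 0.874% had all nascent HCs under all WT_P60 SCs. OHC-like cell 11, at 603 CPM, held 62.9% of the summed Id4 of its group, and the next highest OHC-like cell was at 90.8 CPM.

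**Figure D1:**
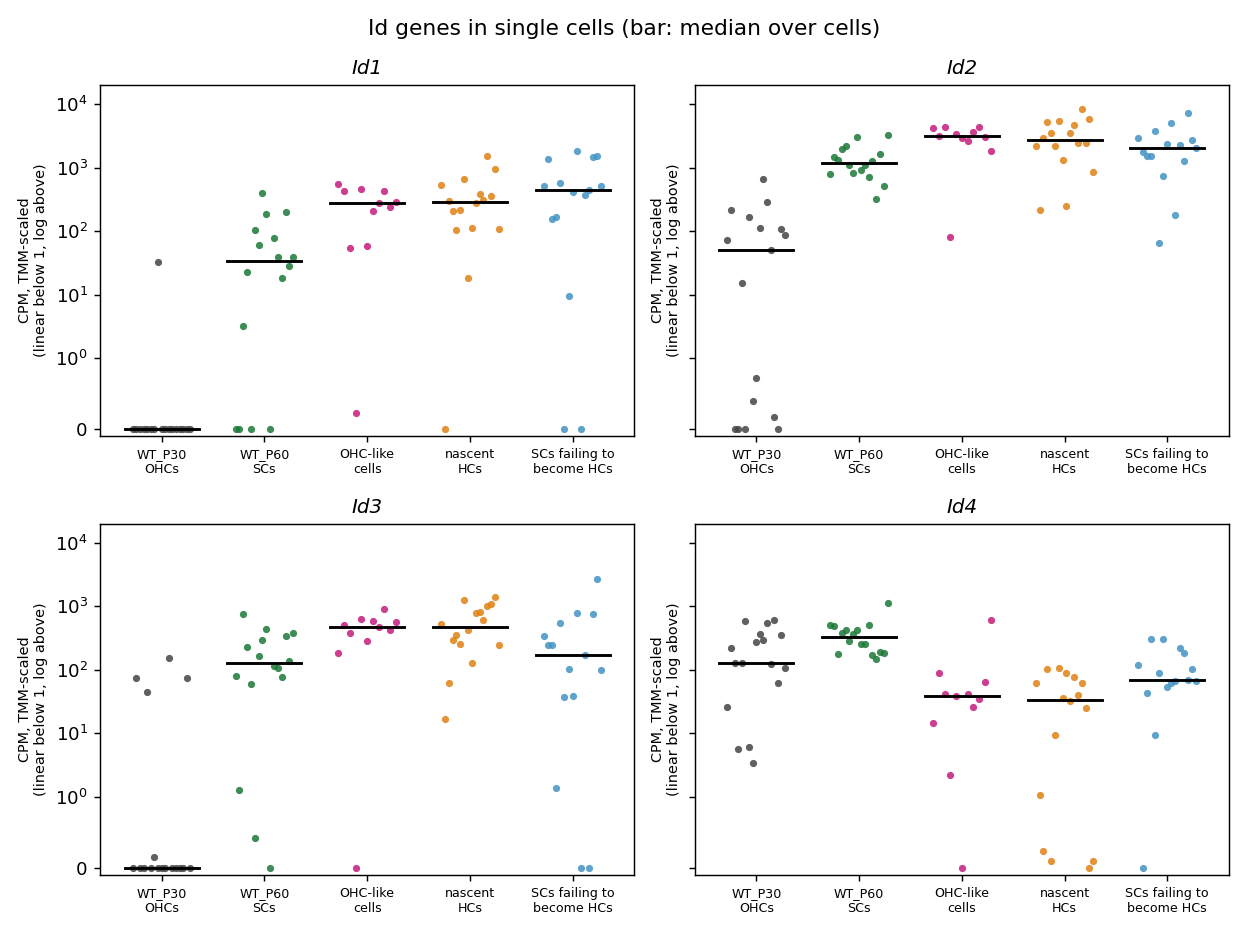
Level of Id1, Id2, Id3 and Id4 in each of the 75 cells by group, in TMM-scaled CPM on an axis that is linear below 1 and logarithmic above; 1 point is 1 cell and the bar is the median. Id1, Id2 and Id3 are lowest in WT_P30 OHCs and highest in the 3 right-hand groups, while for Id4 all 16 nascent HCs lie under the lowest WT_P60 SC at 149 CPM.

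In TPM, which divides by gene length and so allows genes to be compared, the 4 genes took different orders in the 2 wild-type cell types. Mean TPM in WT_P30 OHCs were 140 for Id4, 98.2 for Id2, 25.0 for Id3 and 3.47 for Id1, and in WT_P60 SCs 1547 for Id2, 301 for Id3, 260 for Id4 and 178 for Id1. Id2 exceeded Id4 in TPM in 5 of 17 WT_P30 OHCs and in every cell of the other 4 groups (16 of 16, 11 of 11, 16 of 16 and 15 of 15). By mean TPM Id4 was the leading Id transcript in WT_P30 OHCs, and Id2 led in the other 4 groups. Mean Id4 in OHC-like cells was 56.3 TPM against 2729 for Id2. Id1, Id2 and Id3 were detected together in 0 of 17 WT_P30 OHCs, 11 of 16 WT_P60 SCs, 10 of 11 OHC-like cells, 15 of 16 nascent HCs and 12 of 15 failing SCs. In 12 of 17 WT_P30 OHCs, Id4 was detected with neither Id1 nor Id3.

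WT_P30 OHCs were compared with WT_P60 SCs to ask which members mark the cell type. Differences are given as the log2 ratio of group means, each plus 1 CPM, and a gene was called where it lay past 4-fold, the fold the study used. Of the 8 members that passed the filter (all but Bmp2 and Bmp4), 4 were called, against 30.8% of all 11443 genes (11.7% higher and 19.1% lower in OHCs). Id1, Id2 and Id3 were lower in OHCs, with log2 ratios of -4.68, -3.74 and -3.22, or 25.7-, 13.4- and 9.31-fold. Leaving out each cell in turn kept these at -6.23 to -4.18, -4.32 to -3.61 and -3.94 to -2.92. Id4 was lower in OHCs by -0.70 (1.63-fold). Bmp7 was the member called higher in OHCs, and it is described with the ligands. The median log2 ratio was -0.73 over the 8 members and -0.13 over all genes.

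Each induced group was then compared with WT_P60 SCs, the cell type they started from; the 3 comparisons, and that of OHCs, share these 16 control cells. In OHC-like cells 3 of 8 members were called, against 25.3% of all genes (16.3% higher, 8.98% lower), in nascent HCs 4 of 8 against 23.2% (15.7% higher, 7.52% lower), and in failing SCs 3 of 8, all higher, against 18.5% (12.7% higher). Smad6 and Bmp7 were called higher in all 3. Id1 was higher by 1.86, 2.34 and 3.05 on the log2 scale, which passed 4-fold in nascent HCs and failing SCs; in OHC-like cells it was 3.62-fold and passed it when any of 3 WT_P60 SCs was left out, at 2.36 without cell 8. Id2 was higher by 1.12, 1.20 and 0.76 and Id3 by 1.17, 1.52 and 1.02, none past 4-fold. Id4 was lower by -2.07, -3.15 and -1.68. In OHC-like cells that value sat at the threshold: it lay between -3.34, without cell 11, and -1.86, without WT_P60 SC 16, and 9 of the 27 cells ended the call when left out. In nascent HCs it stayed between -3.31 and -2.95. Median log2 ratios over the 8 members were 1.15, 1.36 and 0.89, beside 0.30, 0.32 and 0.22 over all genes.

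OHC-like cells were compared with WT_P30 OHCs, the cells they are meant to resemble. Here 4 of 8 members were called, all higher in OHC-like cells, against 28.3% of all genes (21.6% higher). Over all genes that is 2473 higher and 761 lower, and 2137 and 1107 under DESeq2 size factors. Id1 differed by 6.54 on the log2 scale (93.0-fold), a size set by 1 WT_P30 OHC and by the constant: it was 8.09 without OHC cell 8 and 4.56 with 10 CPM added. The other members called were Id2 at 4.86 (29.1-fold), Id3 at 4.39 (21.0-fold) and Smad6 at 3.42 (10.7-fold). Id4 was lower by -1.37, and by -2.64 without OHC-like cell 11, which put it past 4-fold. The median over the 8 members was 1.98, beside 0.54 over all genes. Without OHC-like cell 4, the cell with the fewest genes, the same 4 members were called.

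**Figure D2:**
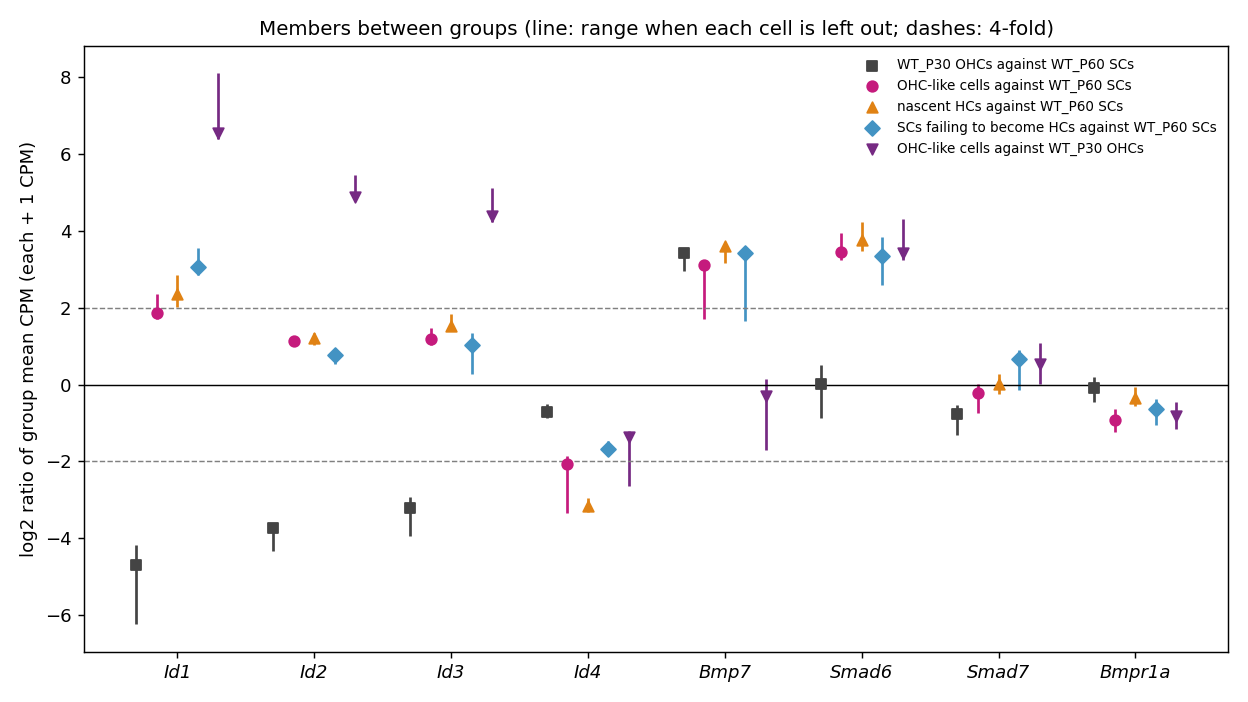
Log2 ratio of group mean CPM (each plus 1 CPM) for the 8 members that passed the filter in 5 comparisons; the vertical line through each point spans the values with each cell left out in turn, and the dashed lines mark 4-fold. Id1, Id2 and Id3 are below 0 in WT_P30 OHCs against WT_P60 SCs and above 0 in the other 4 comparisons, Id4 is below 0 in all 5, and Smad6 lies past 4-fold in the 4 comparisons that involve induced cells.

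Among the ligands, transcripts were scarce or absent. Bmp4, a main ligand of the developing cochlea, had no read in 4 of the 5 groups and 13 reads (exact Poisson 95% interval 6.92 to 22.2, counting error only) over 3 nascent HCs, none reaching 1 CPM. Bmp2, a ligand of the same family branch, had no read in WT_P30 OHCs (0 of 17 cells, which allows up to 19.5% of cells by the exact interval). Reads above 1 CPM were found in 3 of 16 WT_P60 SCs (at most 30.2 CPM), 2 of 11 OHC-like cells (at most 35.2 CPM), 1 of 16 nascent HCs (196 CPM) and 3 of 15 failing SCs (250, 145 and 1.94 CPM). Bmp2 was thus a gene of single cells in every group that had it, and its group mean rested on 1 to 3 cells.

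Bmp7, which signals through the same receptors and is made by many epithelia, had no read in any WT_P60 SC (0 of 16, up to 20.6% by the exact interval). It was detected in 5 of 17 WT_P30 OHCs (at most 56.4 CPM), 2 of 11 OHC-like cells (at most 61.9 CPM), 6 of 16 nascent HCs (at most 58.0 CPM) and 2 of 15 failing SCs (at most 117 CPM). The median was 0 in all 5 groups, so the higher means came from a minority of cells. With no read in WT_P60 SCs, the size of its log2 ratios to them is set by the 1 CPM added to each mean, so no fold is given. A single cell carried 73.2% of the sum in OHC-like cells (cell 11) and 79.6% in failing SCs (cell 7). Without it the log2 ratio to WT_P60 SCs was 1.71 in place of 3.12 and 1.65 in place of 3.43, which ended the 4-fold call.

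Bmpr1a, the type I receptor through which Bmp2 and Bmp4 act, was present at low levels in all groups. Its level was 0, 0 and 241 CPM in WT_P30 OHCs (6 of 17 cells detected), 0, 48.6 and 205 CPM in WT_P60 SCs (12 of 16), 0, 18.2 and 90.2 CPM in OHC-like cells (7 of 11), 0, 20.3 and 138 CPM in nascent HCs (14 of 16) and 0, 16.5 and 161 CPM in failing SCs (10 of 15). The ranges overlapped between all groups. Log2 ratios to WT_P60 SCs were -0.09, -0.92, -0.35 and -0.65, in that order of groups, none past 4-fold.

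Smad6, an inhibitory Smad that acts preferentially on BMP signals and is itself induced by them, had a higher mean in each induced group than in either wild-type group. Its level was 0, 0 and 22.8 CPM in WT_P30 OHCs and 0, 0 and 13.9 CPM in WT_P60 SCs, with 3 of 17 (17.6%, 3.80 to 43.4%) and 3 of 16 cells (18.8%, 4.05 to 45.6%) detected. In OHC-like cells it was 0.223, 27.0 and 68.3 CPM, with 10 of 11 cells detected (90.9%, 58.7 to 99.8%), and in nascent HCs 0, 19.5 and 133 CPM, with 14 of 16 (87.5%, 61.7 to 98.4%). Failing SCs were split, at 0, 0.0802 and 194 CPM with 7 of 15 detected (46.7%, 21.3 to 73.4%). Of the 3 groups, 9 of 11, 11 of 16 and 7 of 15 cells exceeded the highest WT_P60 SC. Summed reads were 206 (exact Poisson interval 179 to 236) in the 16 WT_P60 SCs and 3487 (3372 to 3605) in the 11 OHC-like cells. These sums are not scaled for depth. In WT_P60 SCs nearly all the reads were in cells 8, 9 and 13, with 57, 96 and 50 reads. The log2 ratios to WT_P60 SCs were 3.44, 3.75 and 3.35 (10.9-, 13.4- and 10.2-fold), and in failing SCs the log2 ratio of medians was 0.11. With 10 CPM in place of 1 CPM added to each mean they were 1.75, 1.99 and 1.67, and 1.74 for OHC-like cells against WT_P30 OHCs, all under 4-fold.

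Smad7, the inhibitory Smad that also blocks TGF-beta signals, was past 4-fold in none of these comparisons. Its level was 0, 0 and 77.7 CPM in WT_P30 OHCs, 0.724, 16.9 and 72.1 CPM in WT_P60 SCs, 0, 9.10 and 75.7 CPM in OHC-like cells, 0, 15.1 and 82.6 CPM in nascent HCs and 0, 13.7 and 246 CPM in failing SCs. Log2 ratios to WT_P60 SCs were -0.77, -0.23, 0.03 and 0.66 in that order of groups, and all ranges overlapped. The highest failing SC, cell 10, carried 47.8% of the sum, and without it the ratio of that group was -0.14.

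**Figure D3:**
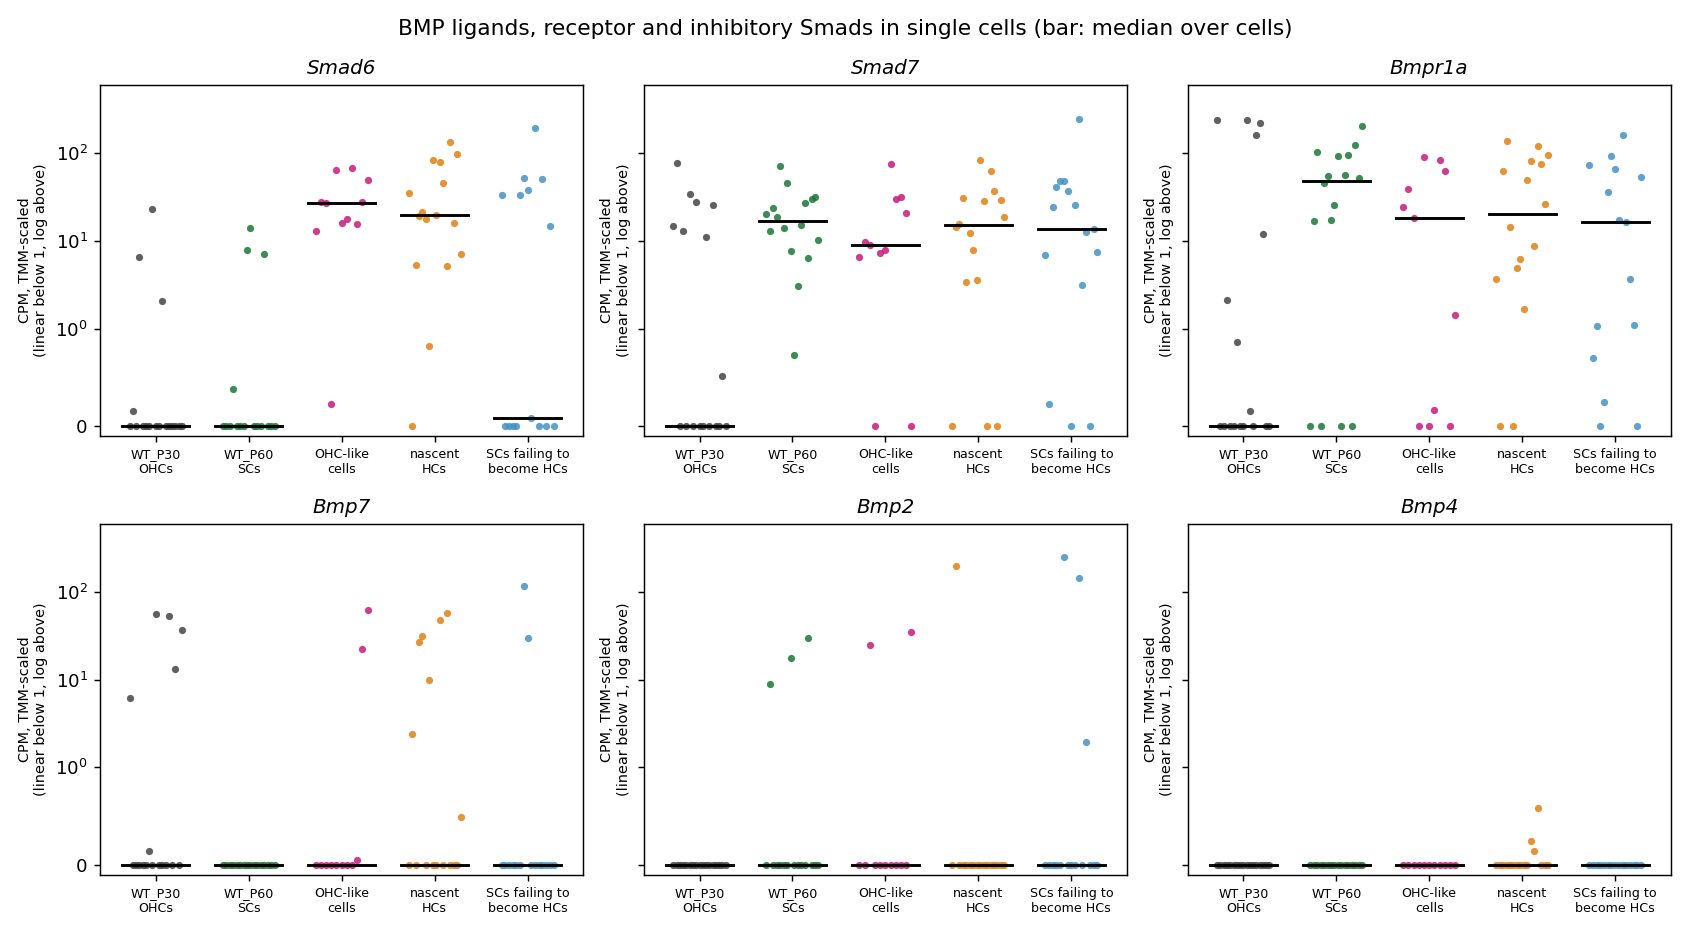
Level of Smad6, Smad7, Bmpr1a, Bmp7, Bmp2 and Bmp4 in each of the 75 cells by group, in TMM-scaled CPM on an axis that is linear below 1 and logarithmic above; 1 point is 1 cell and the bar is the median. Smad6 is above 1 CPM in 3 of 16 WT_P60 SCs and in 10 of 11 OHC-like cells, while Bmp7 has no read in WT_P60 SCs and Bmp2 is seen in single cells.

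**Figure D4:**
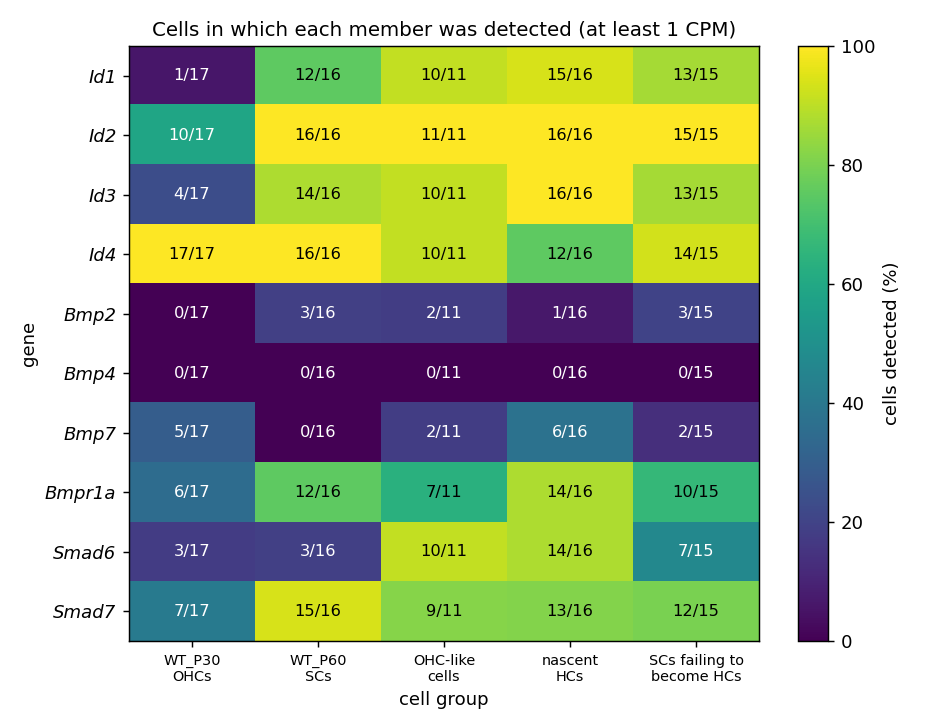
Number of cells of each group in which each of the 10 members reached 1 CPM, printed over the number of cells and coloured by percent. Id1 goes from 1 of 17 WT_P30 OHCs to 10 of 11 OHC-like cells, Smad6 from 3 of 16 WT_P60 SCs to 10 of 11 OHC-like cells, and Bmp4 reaches 1 CPM in no cell.

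Within the Fgfr3-Atoh1-Ikzf2-DTR cells, OHC-like cells and failing SCs were compared to ask whether the members followed conversion, in cells that carried the same transgenes. Of the 8 members 0 were past 4-fold, against 17.8% of all genes. Log2 ratios were -1.20 for Id1, 0.37 for Id2, 0.15 for Id3, -0.38 for Id4, 0.09 for Smad6, -0.89 for Smad7, -0.27 for Bmpr1a and -0.31 for Bmp7, with a median of -0.29 beside 0.05 over all genes. By means Id1 was the member furthest from 0, 2.29-fold lower in OHC-like cells, with overlapping ranges. Smad6 was near 0 by means but not by medians, which were 27.0 CPM in OHC-like cells and 0.0802 CPM in failing SCs. Failing SC 10 had 194 CPM of Smad6, and without it the log2 ratio was 0.86. These 2 groups shared only library runs A and E, with 3 OHC-like cells and 5 failing SCs. In run A, Id1 was 543 CPM in 1 OHC-like cell and 545 CPM on average in 4 failing SCs, and in run E it was 265 CPM on average in 2 cells and 508 CPM in 1. The Id1 ratio was thus -0.01 in run A and -0.93 in run E. Id2 was 1.13 and 0.25 in the same runs, Id3 -0.19 and 2.30, Id4 -2.94 and 2.28, and Smad6 0.57 and 5.30, so the direction of Id3 and Id4 differed between the runs.

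Over the 42 induced cells, Pearson's r of log2(CPM + 1) was 0.85 for Id1 with Id2, 0.69 for Id2 with Id3, 0.61 for Id1 with Id3 and 0.05 for Id2 with Id4. Without the 3 cells that had no Id1 read the first 3 were 0.72, 0.64 and 0.48 (n = 39 cells). For Id1 with Id2 it was 0.88 in OHC-like cells, 0.78 in nascent HCs and 0.93 in failing SCs, and 0.06 in WT_P60 SCs and -0.26 in WT_P30 OHCs. In OHC-like cells it rested on cell 4, the lowest in both genes: without that cell r was 0.03 for Id1 with Id2 and -0.19 for Id2 with Id3 (n = 10 cells). It was 0.63 without nascent HC 2 (n = 15) and 0.77 without failing SCs 6 and 10 (n = 13). Over the 38 cells left without these 4, chosen after the values were seen, r was 0.53 for Id1 with Id2, 0.46 for Id2 with Id3 and 0.24 for Id1 with Id3. These are descriptions over cells that share libraries and depth: r with the number of genes detected was 0.30 for Id1, 0.48 for Id2, 0.51 for Id3 and 0.14 for Id4 in the same 42 cells. Over all 75 cells, which differ in group as well, it was 0.67 for Id1, 0.70 for Id2, 0.67 for Id3, -0.17 for Id4 and 0.54 for Smad6. With Atoh1, r over the 42 cells was -0.25 for Id1, -0.16 for Id2, 0.15 for Id3, -0.04 for Id4 and 0.30 for Smad6.

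Among all genes kept, the 3 most like each Id gene over the 42 cells by Pearson's r were, for Id1, Id2 (0.85), Mecr (0.80) and Heyl (0.78), and for Id2, Id1 (0.85), Dpy30 (0.79) and Tmed2 (0.76). For Id3 they were Sar1a (0.74), Cops8 (0.73) and Tmed2 (0.73), and for Id4 Scfd1 (0.64), Clta (0.60) and Mfap1b (0.60). Over the 42 cells Id1 and Id2 were thus each other's nearest gene. The ranking was not repeated without the 4 cells named above, where r for this pair was 0.53. Over all 75 cells, where the groups themselves set much of r, the nearest were Plxnb2 for Id1 (0.81), Errfi1 for Id2 (0.83), Id2 for Id3 (0.75) and Sall1 for Id4 (0.58).

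**Figure D5:**
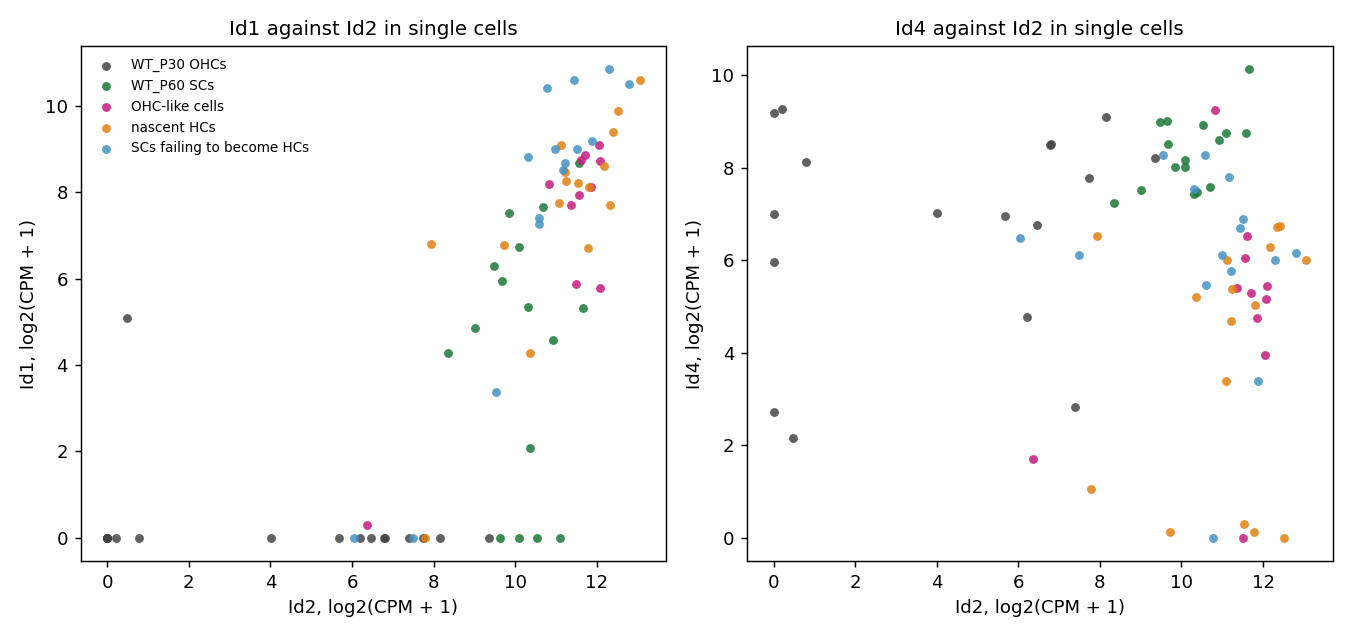
Id1 (left) and Id4 (right) against Id2 in each of the 75 cells, as log2(CPM + 1), coloured by group. Over the 42 induced cells r is 0.85 for Id1 and 0.05 for Id4; without the 4 cells with the least Id1 the first is 0.53.

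Other genes of the pathway were taken from lists, of which the genes that passed the filter are counted here as past 4-fold, higher and lower, in WT_P30 OHCs, OHC-like cells, nascent HCs and failing SCs against WT_P60 SCs. Over all 7 lists, E proteins included, 25 genes passed, of which 11, 7, 10 and 10 were past 4-fold (44.0, 28.0, 40.0 and 40.0%), beside 30.8, 25.3, 23.2 and 18.5% of all genes. Several of these calls rest on 1 cell, which is given with the gene. Of 10 further ligands 2 passed, Bmp3 and Bmp6. Bmp3, a ligand known to oppose other BMPs, had means of 85.6 CPM in WT_P30 OHCs, 26.6 CPM in OHC-like cells and 23.6 CPM in nascent HCs, and of 0.0 CPM in WT_P60 SCs and failing SCs. Bmp6 had means of 0, 12.9, 15.7, 69.8 and 156 CPM in the order WT_P30 OHCs, WT_P60 SCs, OHC-like cells, nascent HCs and failing SCs. Nearly all of the OHC-like mean was cell 1, at 167 CPM: without it the log2 ratio was 0.64 in place of 4.06 to WT_P30 OHCs and -3.16 in place of 0.26 to WT_P60 SCs. Bmp6 was detected in 15 of 15 failing SCs and had no read in WT_P30 OHCs, a separation of ranges that 0.306% of all genes showed in that direction. By mean TPM, Bmp6 was at 87.9 in failing SCs, beside 25.3 for Bmp2 and 8.66 for Bmp7.

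Of 10 further receptors and co-receptors 7 passed. None was higher and 1 lower (Rgmb) in WT_P30 OHCs, 1 was higher (Acvr1) in OHC-like cells and in nascent HCs, and 2 were higher (Acvr1, Neo1) and 1 lower (Bmpr1b) in failing SCs, the last at -2.65 and at -1.96 without WT_P60 SC 13. Acvr1, a type I receptor for Bmp6 and Bmp7, had a mean of 23.1 CPM in OHC-like cells and 23.9 CPM in nascent HCs, beside 0.3 CPM or less in both wild-type groups. Rgmb, a co-receptor, had means of 18.8 CPM in both WT_P60 SCs and OHC-like cells, and near 0 in WT_P30 OHCs. Of the 4 Smads that carry the signal 3 passed. Smad5 was past 4-fold higher in all 4 groups, from a mean of 0.8 CPM in WT_P60 SCs to 15.0, 22.0, 18.9 and 13.2 CPM, and Smad1 in nascent HCs (69.6 CPM) and failing SCs (90.3 CPM), from 9.5 CPM. In WT_P30 OHCs the Smad5 value was 1 cell: cell 7 had 256 CPM, and without it the log2 ratio was -0.81 in place of 3.18.

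Of 12 antagonists and modulators outside the cell 2 passed. Twsg1, which binds BMPs and can either block or aid them, had means of 141 CPM in WT_P60 SCs, 626 CPM in OHC-like cells and 985 CPM in nascent HCs, both past 4-fold, and 394 CPM in failing SCs. Fstl3, which binds activins and some BMPs, was at most 5.8 CPM by group mean; its calls lower in WT_P30 OHCs, OHC-like cells and nascent HCs (-2.24, -2.24 and -2.25) ended without WT_P60 SC 16 (-1.84, -1.83 and -1.84). All 6 intracellular brakes passed: Smurf1 and Skil were past 4-fold higher in WT_P30 OHCs and Skil in failing SCs, and none was in OHC-like cells or nascent HCs. Both OHC calls ended without 1 OHC: Skil was 2.08, and 0.99 without cell 10, and Smurf1 was 2.31, and 1.96 without cell 9. Smurf1, a ubiquitin ligase for Smads, had a mean of 133 CPM in WT_P30 OHCs and 23.3 CPM in OHC-like cells. Of 5 other target genes Atoh8 and Hey1 passed. Atoh8 had means of 21.5, 29.6 and 7.0 CPM in the 3 induced groups and 0.8 CPM in WT_P60 SCs, with the value in failing SCs at 2.15 and at 0.53 without cell 5. Hey1 had means of 157 CPM in nascent HCs and 78.8 CPM in failing SCs, both past 4-fold from 5.7 CPM in WT_P60 SCs. It was at 5.9 CPM in OHC-like cells, near the level of WT_P60 SCs, and at 0 in WT_P30 OHCs.

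The 3 E proteins, the partners that Id proteins bind, also differed between OHCs and SCs. Tcf4 was past 4-fold higher in WT_P30 OHCs and in each induced group, with means of 11.6 CPM in WT_P60 SCs, 314 CPM in WT_P30 OHCs, 92.9 CPM in OHC-like cells, 112 CPM in nascent HCs and 100.2 CPM in failing SCs. Tcf3 and Tcf12 were past 4-fold lower in WT_P30 OHCs, at 1.3 and 0.9 CPM against 15.4 and 36.8 CPM in WT_P60 SCs. In OHC-like cells they were at 31.9 and 40.2 CPM.

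Genes of other cell types that use BMP signals were read beside these results. Of 8 endothelial markers 3 were detected in WT_P60 SCs, where they summed to 0 to 296 CPM with Cdh5, Kdr, Tek, Emcn and Flt1 at no read, and 5 in OHC-like cells, where they summed to 0 to 83.8 CPM with Emcn at no read. The 3 Schwann cell markers had median sums of 80.8 CPM in OHC-like cells (0 to 171) and 32.0 CPM in nascent HCs (0 to 145). They were 0 in WT_P60 SCs (0 to 44.2) and WT_P30 OHCs (0 to 71.5) and 0.158 in failing SCs (0 to 65.5). In OHC-like cells 2 of the 3 were detected, 1 of them in most cells, and in nascent HCs all 3 were detected. OHC-like cells and nascent HCs also had the higher Smad6 medians, a match of groups that was not tested over cells. The 4 neuron markers had medians of 255 CPM in WT_P30 OHCs, 148 CPM in OHC-like cells and 220 CPM in nascent HCs, and of 0 in WT_P60 SCs and 0.507 in failing SCs. All 4 were detected in WT_P30 OHCs and 3 in OHC-like cells, with 1 in most cells of each group. The 6 fibroblast markers had a median of 171 CPM in WT_P30 OHCs (0.387 to 394) and 0 in WT_P60 SCs (0 to 10.3), and reached 2014 CPM in 1 failing SC. Only 2 of the 6 were detected in any WT_P30 OHC, 1 of them in most cells, and Col3a1 and Dcn had no read there. The blood markers reached 2687 CPM in 1 OHC-like cell and the macrophage markers 91.6 CPM in 1 WT_P30 OHC. Their part in the values of the members was not tested.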

How the data were processed

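Single cells were picked by hand, amplified with the Smart-Seq HT kit and sequenced as paired ends without molecular identifiers. Per the study's methods and the submitters' processing notes, reads were trimmed (Trimmomatic), aligned to GRCm38 (HISAT2) and counted per gene (HTSeq). The authors deposited raw read counts per gene; their TPM were not used. The strand setting and the annotation release are not given in the sources used here.

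Counts were scaled in edgeR 4.0.16 by TMM to CPM, over 55291 genes; the row of a viral element (WPRE, 0.0254% of counts) was left out. The filter (filterByExpr, minimum count 10, 5 groups) kept 11443 genes. TPM were computed from summed exon lengths in GENCODE M21. The detection limit was 1 CPM, taken on total counts. Groups were compared by the log2 ratio of mean CPM, each plus 1 CPM, and called past 4-fold. No test was run, since each sample was 1 cell and no animal was named. Shares carry exact Clopper-Pearson and sums exact Poisson 95% intervals, which cover counting error only. Amplified reads without molecular identifiers are not independent counts, so the Poisson intervals are too narrow even for that. The ratio step was tested on simulated data. The named genes were the 10 members, the 3 genes most like each Id gene, and members of the pathway lists past 4-fold in OHC-like cells against either wild-type group; Smad1, Neo1, Bmpr1b and Skil were named after their values were seen. The members and lists were chosen with earlier results of these data known. Scripts used Python 3.11.15, R 4.3.3 and DESeq2 1.42.0, the last for size factors in an alternative. Other scalings, constants, filters, folds, medians, sums, thinned counts, library runs and omitted cells were tried as alternatives.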

Additional observations from a re-analysis of the deposited data

How the results depend on the processing

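No paired analysis was possible because the results come from no test and the shared cell numbers do not tie cells of different groups. Of 620 values of single members under alternatives, 579 stayed within the spread between cells, 39 moved further and 2 of the values past 4-fold reversed: Bmp2 in OHC-like cells against failing SCs, -2.09 over all runs, was 3.67 in runs A and E and 4.22 in run E. All Bmp2 of failing SCs was in run C (mean 39.7 CPM), with 0 in runs A and E. In OHC-like cells of runs A and E only cell 11 had Bmp2, at 35.2 CPM. Why Bmp2 lay in these cells was not tested. A further 33 values under 4-fold took the other sign, 5 of them by more than the spread between cells. These 5 were Bmpr1a in OHC-like cells against WT_P30 OHCs (-0.82, and 4.26 by medians), Bmp2 in nascent HCs against WT_P60 SCs (1.54, and -2.18 without nascent HC 2) and, in OHC-like cells against failing SCs, Id4 (-0.38, and 2.28 in run E) and Bmp7 (-0.31, and 4.87 in runs A and E and 5.44 in run E). In the order WT_P30 OHCs, OHC-like cells, nascent HCs and failing SCs against WT_P60 SCs, OHC-like cells against WT_P30 OHCs, and OHC-like cells against failing SCs, the genes past 4-fold were 3526, 2894, 2658, 2115, 3234 and 2037. With 10 CPM added they were 1573, 1305, 1191, 759, 1343 and 787, without the filter 5532, 4657, 4270, 3909, 5088 and 3807, and past 2-fold 6241, 5704, 5377, 4899, 6053 and 4791. By medians over cells, 5069 genes were past 4-fold in OHC-like cells against WT_P30 OHCs. With 10 CPM added, the members past 4-fold against WT_P60 SCs were 0 in OHC-like cells, 2 in nascent HCs and 1 in failing SCs. Past 2-fold they were 6 in OHC-like cells and 5 in failing SCs. In OHC-like cells against failing SCs they were 1 by medians (Smad6), without the filter (Bmp2), past 2-fold (Id1) or in run A (Id4), 2 in runs A and E, and 5 in run E. With each cell left out in turn the members past 4-fold were 4 to 4, 2 to 4, 4 to 4, 2 to 3, 4 to 5 and 0 to 0. Under DESeq2 size factors the genes past 4-fold in OHC-like cells against WT_P30 OHCs were split as 2137 higher and 1107 lower, against 2473 and 761, and the median over all genes was 0.14 in place of 0.54. The signs of Id1, Id2, Id3 and Id4 in the first 5 comparisons were kept under every alternative run. Library runs, age and mouse line cannot be told apart from cell type against wild-type cells, and single-cell values at low depth per gene limit Bmp2, Bmp4, Bmp7 and Smad6.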

Other observations

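Over the 42 induced cells, 3 had Bmp2 over 100 CPM, and these were the 3 with no read of Id1; this was chosen after the values were seen. Nascent HC 2 had 196 CPM of Bmp2 and 218 CPM of Id2, failing SC 6 had 250 and 65.2 CPM, and failing SC 10 had 145 and 180 CPM. All 3 were among the 5 induced cells with Id2 under 300 CPM. Cells 6 and 10 of the failing SCs also had Atoh1 at 28402 and 9341 CPM and Ikzf2 at 2047 and 1642 CPM, against group medians of 2496 and 524 CPM.

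OHC-like cell 4, also singled out after its values were seen, had 0.223 CPM of Id1, 81.1 CPM of Id2, no read of Id3 and 0.223 CPM of Smad6, with 4293 CPM of Myo7a and the fewest genes detected of all 75 cells (3348).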
